A study of Caenorhabditis elegans with 58 samples.

Results

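The microRNA (miRNA) hairpins mir-1821, mir-2953, mir-800, mir-784, mir-789-1 and mir-796 of the nematode Caenorhabditis elegans are described here. They were selected on the measured levels of their guide arms, which were lower in animals whose miRNA Argonautes carry a catalytic mutation than in controls, so those contrasts describe the choice and support nothing. Taking both arms of each hairpin gave 12 of the 276 miRNA arms in the count table, from 6 of its 138 hairpins.

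A miRNA is cut from a hairpin precursor as a duplex, and an Argonaute protein keeps the guide strand while the star strand is discarded and degraded. ALG-1 and ALG-2 are the main miRNA Argonautes of C. elegans, and each has the residues of a slicing enzyme, although most animal miRNAs repress their targets without cutting them. In target-directed miRNA degradation (TDMD), a highly complementary target instead marks the Argonaute for destruction by a ubiquitin ligase whose substrate receptor in worms is EBAX-1, and the guide is lost with it.

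Small RNA was sequenced from whole hermaphrodites in 58 libraries that fall into 15 groups and 3 experiments. In experiment 1, wild type (strain N2) was set against strain MCJ275, whose alleles alg-2(cdb155) on chromosome II and alg-1(cdb153) on X give both Argonautes the AEDH mutation, called double AEDH here. Each genotype had 4 young adult, 4 mixed embryo and 3 L4 libraries. Experiment 2 used young adults, with 4 libraries in each of 6 groups. These were N2, MCJ275, the null CZ9907 (ebax-1(tm2321), chromosome IV), MCJ354 (that null with both AEDH alleles named above), MCJ350 (Y47H10A.5(cdb188), chromosome I) and MCJ352 (Y47H10A.5(cdb190) with both AEDH alleles). The Y47H10A.5 alleles remove a binding site of mir-243, per the labels, and the 2 strains carry different deletion alleles. Experiment 3 compared mixed embryos of N2, MCJ277 (alg-1(cdb153) X) and MCJ288 (alg-2(cdb155) II), with 4 libraries each. Growth was 48 h at 20 °C for L4 larvae but 44 h at 25 °C for young adults, so temperature differs between those stages. Embryos came from hypochlorite treatment of cultures kept at 20 °C. Separate cultures are not named in the labels, and p-values therefore reflect only how these libraries spread, in part perhaps for technical reasons. The AEDH and ebax-1 mutations themselves cannot be checked from miRNA counts.

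Library totals ran from 7078441 to 15561313 miRNA counts for experiment 1, from 7671862 to 21076794 for experiment 2, and from 4806021 to 6768897 for experiment 3. Levels are given as CPM, the count scaled by the library's total of miRNA arm counts. A count of 3, taken as the floor, is worth 0.142 to 0.624 CPM depending on the library, and floors cover counting error only because the reads carry no molecular identifiers. Stage markers matched the labels: the mir-35 family, abundant in embryos, summed to group means of 266182 to 507234 CPM in embryos and 6262 to 77682 CPM in the other stages, while 5 miRNAs of late larvae and adults (lin-4, let-7, mir-48, mir-84 and mir-241) summed to 168 to 372 CPM in embryos and 60157 to 81284 CPM elsewhere. The muscle miRNA mir-1_3p had group means of 71051 to 182791 CPM and the neuronal miRNA mir-124_3p had 2.93 to 8.11 CPM.

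All positions are on the ce11 build, from the MirGeneDB 2.0 arm annotation. The mir-1821 hairpin lies on chromosome V (3042552 to 3042613, minus strand), outside protein-coding genes, and its start coordinate is 447 bp from that of mir-792. The mir-2953 hairpin lies in an intron of F41G3.5, on the same strand (II, 6747182 to 6747242, plus strand). The hairpins of mir-800, mir-784 and mir-796 are on chromosome X, minus strand, outside protein-coding genes. They span 380925 to 380983 (mir-800, 320 bp from R04A9.3), 8074934 to 8074996 (mir-784, 3052 bp from C46F2.1) and 1798941 to 1799001 (mir-796, 2455 bp from C14E2.11). The mir-789-1 hairpin (IV, 16740708 to 16740773, minus strand) overlaps an exon and the 5′ UTR of Y51H4A.24 on its own strand and an intron of Y51H4A.25 on the other. A near-identical copy, mir-789-2, lies elsewhere on that chromosome (17309322 to 17309387, minus strand). The star arms of the 2 copies share an identifier in the annotation, so the split of their reads is uncertain, and their guide arms have separate identifiers. For mir-800 the annotation marks no star, and the arm of lower wild-type level, 5p, was taken as the star.

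All 6 miRNAs are scarce. Over the wild-type libraries, mir-1821_3p averaged 95.6 CPM and ranked 111th of 276 arms. The other guide arms averaged 11.2 CPM (mir-796_5p) to 17.8 CPM (mir-789-1_5p), at ranks 156 to 174, and the star arms 0.108 to 1.61 CPM, at ranks 221 to 255. Together the 12 arms took 0.00645 to 0.0227% of miRNA counts in the group means. A filter on low counts kept 6 of the 12 arms in the single-mutant embryos and in double AEDH embryos, and 9 of the 12 in the other comparisons, so most star arms are given as values only.

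**Figure D1:**
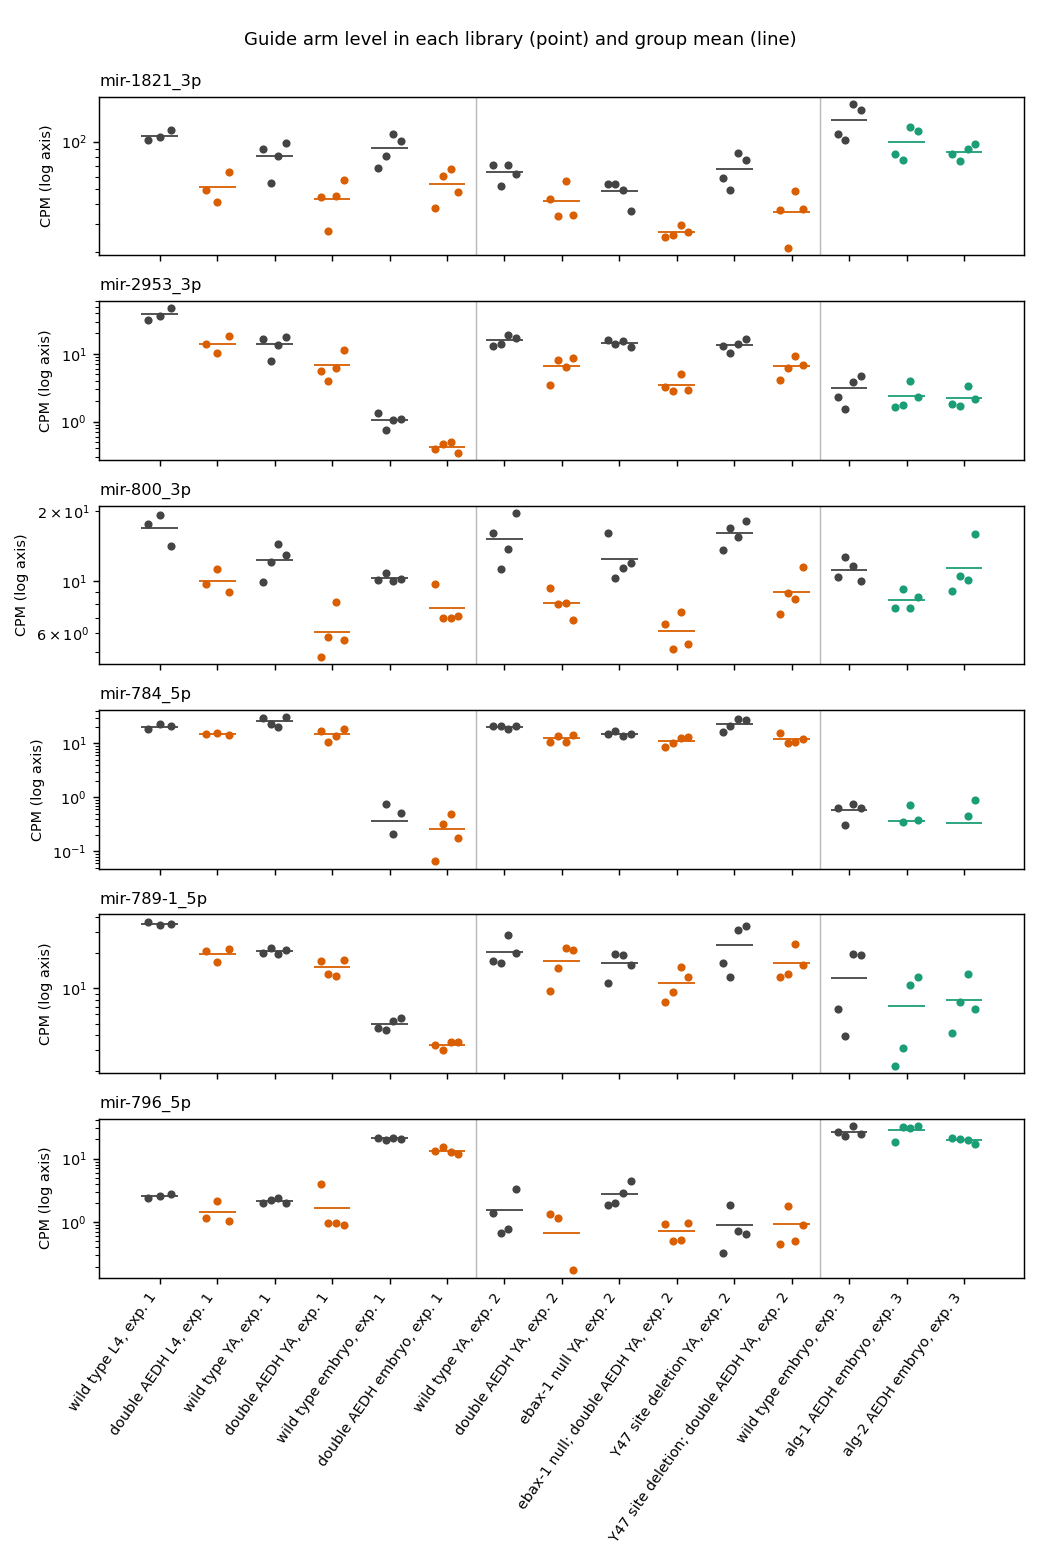
Level of each member guide arm (CPM, log axis) in every library (points) with the group mean (line), over the 15 groups, with experiments separated by vertical lines. Grey marks backgrounds without an AEDH mutation, orange double AEDH and green the single mutants, and libraries at 0 are not drawn. Young adult and L4 levels of mir-784_5p lie far above those of embryos, and mir-796_5p shows the opposite order.

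The stage at which each miRNA is present was compared in wild type alone, which the choice of members did not use as a contrast, although those libraries served as its controls. The members had no common pattern. mir-784_5p and mir-2953_3p were larval and adult miRNAs, and mir-796_5p was an embryonic one. mir-789-1_5p was lower in embryos of experiment 1, and mir-1821_3p and mir-800_3p were present at all stages. In bulk samples, fewer cells of a type and less RNA per cell cannot be told apart. Of 9 member arms tested with edgeR's quasi-likelihood test, 7 differed between embryos and young adults, against 85.7% of all 231 arms. Between embryos and L4 larvae 5 of 9 differed, against 83.5% of all arms, and between L4 larvae and young adults 3 of 9, against 48.1%. These shares lie near or below the background of all arms. By libraries alone, embryos lay wholly below young adults in 48.9% and wholly above in 29.4% of arms, wholly below L4 larvae in 52.8%, and L4 larvae wholly above young adults in 36.4%.

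mir-784_5p was at 29.8, 22.5, 20.2 and 30.6 CPM in the wild-type young adults of experiment 1 and at 18.2, 22.5 and 20.9 CPM in L4 larvae. In embryos it was at 0, 0.759, 0.213 and 0.505 CPM. Every embryo library lay far below every larval and adult library, and 1 embryo library had no read. The log2 fold change of embryos over young adults was -5.55 (95% interval -6.60 to -4.49, edgeR adjusted p = 2.76e-07), and over L4 larvae -5.09 (edgeR adjusted p = 9.24e-07). Its star arm mir-784_3p* fell as well, with a log2 fold change of -3.15 against young adults (edgeR adjusted p = 0.00577), but had reads in 1 of the 4 embryo libraries only. Both arms passed the low-count filter only through larval or adult libraries, where they are high, so nothing is read from these p-values. L4 larvae and young adults were not told apart for this miRNA (log2 fold change -0.46, 95% interval -1.28 to 0.36).

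mir-2953_3p was at 31.8, 36.7 and 47.1 CPM in wild-type L4 larvae, at 16.4, 7.84, 13.6 and 17.9 CPM in young adults and at 1.35, 0.759, 1.06 and 1.09 CPM in embryos. The 3 stages did not overlap, with the highest level in L4 larvae. L4 larvae exceeded young adults by 1.34 on the log2 scale (95% interval 0.77 to 1.91, edgeR adjusted p = 0.00121). Embryos lay below young adults by a log2 fold change of -3.09 and below L4 larvae by -4.43 (edgeR adjusted p = 6.05e-07 and 3.49e-08).

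mir-796_5p was at 21.5, 19.9, 21.4 and 20.7 CPM in wild-type embryos of experiment 1. It was at 2.01, 2.24, 2.44 and 2.00 CPM in young adults and at 2.4, 2.56 and 2.76 CPM in L4 larvae. Embryos were far above both, with log2 fold changes of 3.86 (95% interval 3.48 to 4.24, edgeR adjusted p = 7.46e-10) and 3.74 (edgeR adjusted p = 2.75e-09). Young adults hold embryos, and the mir-35 family, which is also embryonic, summed to 77682 ± 21252 CPM (SD, n = 4) in the same young adults and 6344 ± 542 CPM (SD, n = 3) in L4 larvae. The part of embryos in the adult level of mir-796_5p was not tested, and its L4 and young adult levels were not told apart (log2 fold change 0.12, 95% interval -0.31 to 0.55).

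Between L4 larvae and young adults the guide arm of mir-789-1 and the star reads counted for it differed in opposite directions. In embryos of experiment 1 both were lower than in young adults. In wild type of experiment 1, mir-789-1_5p was at 36.7, 34.4 and 35 CPM in L4 larvae and 20.1, 21.8, 19.6 and 21.2 CPM in young adults. It was at 4.56, 4.41, 5.25 and 5.64 CPM in embryos, and the stages did not overlap. Wild-type embryos of experiment 3 averaged 5.30 CPM in replicates 1 and 2 but 19.3 CPM in replicates 3 and 4, near the young adult level. In experiment 1 the log2 fold change of mir-789-1_5p was 0.63 for L4 larvae over young adults (edgeR adjusted p = 0.00443). It was -1.46 for embryos over young adults (edgeR adjusted p = 1.21e-06). The star arm mir-789-1_3p* was at 1.39 ± 0.438 CPM (SD, n = 3) in L4 larvae and 2.86 ± 0.525 CPM (SD, n = 4) in young adults, which is -1.19 on the log2 scale (edgeR adjusted p = 0.00485), a call that was lost with spike-in scaling (-0.64, edgeR adjusted p = 0.224). In embryos the star differed from young adults by -1.91 on the log2 scale. The ratio of star to guide does not depend on scaling, and it was lower in L4 larvae than in young adults by a log2 shift of -1.81 (95% interval -2.31 to -1.31, limma adjusted p = 6.55e-05). It was higher in embryos than in L4 larvae by 1.43 (limma adjusted p = 0.000347). Between embryos and young adults it was not told apart (-0.38, 95% interval -0.84 to 0.08). Ratios changed in 33.3%, 55.9% and 61.3% of the 93 hairpins tested in these comparisons, in that order. The star arms are not separable from those of the copy mir-789-2. Star reads counted for mir-789-1 and mir-789-2 were 37 and 41 in L4 larvae, 104 and 93 in young adults, and 27 and 42 in embryos. The star values and ratios may thus describe a star pooled over both copies, and no arm shift of the mir-789-1 hairpin is read from them. The guide arm of the copy, mir-789-2_5p, was at 74.7 ± 15.9 CPM (SD, n = 3) in L4 larvae, 44.3 ± 9.19 CPM in young adults and 46.5 ± 10.4 CPM in embryos (SD, n = 4 each), above mir-789-1_5p at every stage.

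The remaining guides had stage differences that rest on how libraries are scaled. mir-800_3p was at 17.0 ± 2.58 CPM (SD, n = 3) in wild-type L4 larvae, 12.4 ± 1.91 CPM in young adults and 10.3 ± 0.369 CPM in embryos (SD, n = 4 each). Its log2 fold change for embryos over L4 larvae was 0.03 with the TMM scaling used throughout, which sets libraries level on the bulk of arms, and -0.71 with total counts. mir-1821_3p was at 90.8 ± 19.8 CPM in embryos and 80.9 ± 18.8 CPM in young adults (SD, n = 4 each), and these overlapped. Embryos over young adults gave 0.77 on the log2 scale with TMM (edgeR adjusted p = 0.00285) and 0.17 with total counts (edgeR adjusted p = 0.478). For embryos over young adults the all-arm median was 0.12 with TMM, -0.43 with total counts and 0.73 with spike-ins, and mir-1821_3p was still called higher with spike-ins (1.35, edgeR adjusted p = 0.000413). Against L4 larvae its direction turned, from 0.47 with TMM (edgeR adjusted p = 0.0565) to -0.26 with total counts. The calls of mir-800_3p depended on the scaling. Embryos were called lower than L4 larvae with total counts (edgeR adjusted p = 0.00357). With spike-ins embryos were called higher than young adults (0.94, edgeR adjusted p = 0.00806), as were L4 larvae (0.86, edgeR adjusted p = 0.0351).

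The double AEDH contrasts, which chose the members, are given as values without a test. As background, all mutant libraries lay below all controls in 11.7% of arms in L4 larvae, 6.36% in young adults and 5.19% in embryos of experiment 1, and in experiment 2 in 10.6% of arms in wild type, 5.31% in the ebax-1 null and 6.64% in the Y47 site deletion. In L4 larvae mir-1821_3p was at 102, 106 and 118 CPM in wild type and 49.1, 41.7 and 64.4 CPM in double AEDH. In embryos it was at 68.1, 81.4, 112 and 102 CPM in wild type and 37.8, 60.5, 67.5 and 48.2 CPM in double AEDH. Mutant libraries lay below all wild-type libraries at both stages. In young adults of experiment 1 the wild type was at 89.4, 54.5, 81.6 and 98.0 CPM and double AEDH at 44.4, 27.2, 45.1 and 57.1 CPM, and 1 mutant library overlapped the wild-type range. Over the 6 contrasts, 3 in experiment 1 and 3 backgrounds in experiment 2, its log2 fold change was -1.07 to -0.60. The mutant was lower in 23 of 23 same-numbered pairs, although numbers do not pair the libraries in the ebax-1 null background (r from -0.51 to -0.086).

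In experiment 2 mir-2953_3p was at 13.2, 13.8, 19.0 and 17.0 CPM in wild type and 3.49, 8.03, 6.39 and 8.56 CPM in double AEDH. In ebax-1 null animals it was at 15.8, 14.2, 15.3 and 12.5 CPM without, and 3.22, 2.87, 4.96 and 2.96 CPM with, the AEDH mutations. Neither pair of groups overlapped. On the log2 scale the difference was -2.02 in the ebax-1 null background and -1.24 in the wild-type background of the same experiment, and -1.03 and -1.45 in young adults and L4 larvae of experiment 1. In embryos both genotypes were too low for the filter, at 1.07 ± 0.242 CPM in wild type and 0.426 ± 0.0677 CPM in double AEDH (SD, n = 4 each), without overlap.

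mir-800_3p was the member whose double AEDH libraries lay below all control libraries in each of the 6 contrasts. Its values in young adults of experiment 1 were 9.92, 12, 14.5 and 12.9 CPM in wild type and 4.75, 5.76, 8.18 and 5.60 CPM in double AEDH. In embryos, where the groups came closest, they were 10.1, 10.9, 10.1 and 10.3 CPM against 9.74, 6.95, 6.96 and 7.14 CPM. The gap there was narrow, since 1 double AEDH library lay just under wild type. Log2 fold changes were -1.03 to -0.45 over the contrasts. Of 122 guide arms tested in all 6 contrasts, 3 had no overlap in any (mir-800_3p, mir-243_3p and mir-1829a_5p), and 20 had a log2 fold change below 0 in all.

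mir-784_5p was at 21.1, 20.7, 18.8 and 21.2 CPM in wild type of experiment 2 and at 10.8, 13.8, 10.6 and 14.2 CPM in double AEDH, without overlap. Its log2 fold change was -0.95 to -0.41 over 5 contrasts, none with overlap, and embryos were too low to compare (0.369 ± 0.332 and 0.262 ± 0.184 CPM, SD, n = 4 each). Its star arm had log2 fold changes of 0.02 to 0.81 in the same 5 contrasts. Star libraries overlapped in each, and the star was lower in 9 of 19 same-numbered pairs. The guide was chosen as lower, which can by itself raise the share of the star, so no arm shift is read from these values. The star share of mir-784, the star as a percentage of both arms, was 3.39 ± 2.24% in wild-type and 8.60 ± 3.29% in double AEDH young adults of experiment 1 (SD, n = 4 each). In experiment 2 the spread was wider, with shares of 8.48 ± 6.24% and 13.5 ± 6.44%, in that order (SD, n = 4 each).

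mir-789-1_5p was at 19.5 ± 2.61 CPM in double AEDH L4 larvae against 35.4 ± 1.21 CPM in wild type (SD, n = 3 each), and its libraries did not overlap there. It was also below wild type without overlap in young adults and embryos of experiment 1, where the log2 fold changes were -0.45 and -0.60. Libraries overlapped in all 3 backgrounds of experiment 2, with log2 fold changes of -0.25 to -0.54. The copy mir-789-2_5p had log2 fold changes of -0.20 to 0.28 over the 6 contrasts and overlapped in each. Its level in double AEDH L4 larvae was 64.6 ± 25.6 CPM (SD, n = 3). The neighbour of mir-1821 on its own strand, mir-792_3p, was looked up after its values were known and had log2 fold changes of -0.43 to 0.33.

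**Figure D2:**
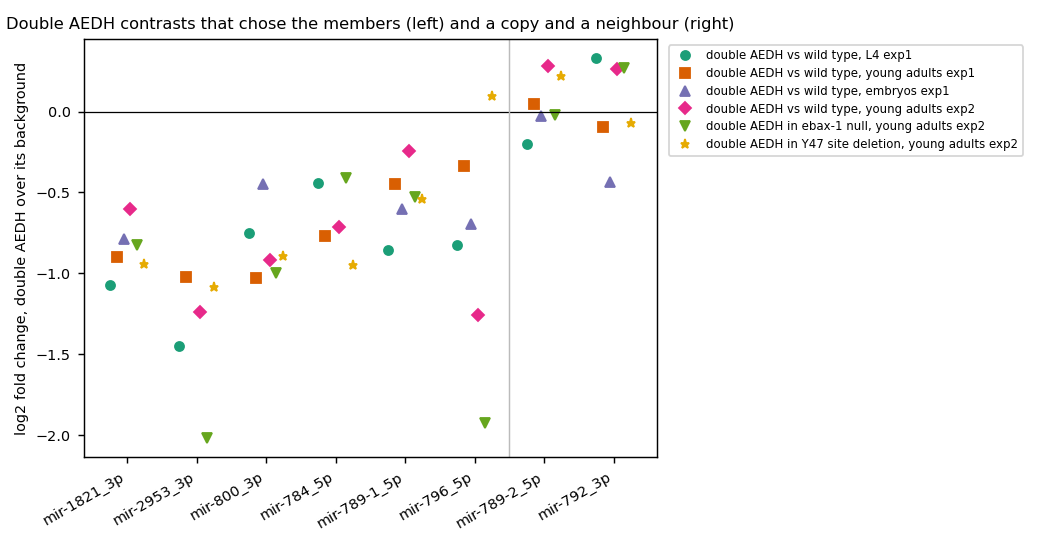
Log2 fold change (edgeR, TMM) of double AEDH over its background for each member guide arm in the contrasts that chose the members, and for mir-789-2_5p and mir-792_3p at the right, which were not members. Points below 0 are lower in double AEDH. The members lie below 0 except mir-796_5p in the Y47 site deletion background (0.10), and the 2 arms at the right lie on both sides of 0.

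The arms of mir-796 moved apart in embryos, the stage at which it is abundant. The guide mir-796_5p was at 21.5, 19.9, 21.4 and 20.7 CPM in wild-type embryos and 12.9, 15.2, 12.6 and 12 CPM in double AEDH embryos, a log2 fold change of -0.69. The star mir-796_3p* was at 0.514, 0.152, 0.213 and 0.673 CPM in wild type and 2.29, 1.58, 1.31 and 1.65 CPM in double AEDH, a log2 fold change of 2.10. Neither arm overlapped between genotypes, with the guide lower and the star higher, the latter as in 8.02% of all arms. The star share was 1.81 ± 1.14% in wild type, from 21 star and 1144 guide reads, and 11.5 ± 2.67% in double AEDH, from 90 and 682 reads (SD, n = 4 each). For mir-1821 the star share was 0.999 ± 0.6% in wild-type and 2.94 ± 0.539% in double AEDH embryos (SD, n = 4 each). In young adults mir-796_5p was low, from 0.665 ± 0.674 to 2.80 ± 1.19 CPM over the groups (SD, n = 4 each). In experiment 2 the log2 fold change of mir-796_5p was -1.26 in wild type and -1.92 in the ebax-1 null. The embryonic mir-35 family there summed to 62932 ± 3500 CPM in wild type and 42755 ± 4138 CPM in double AEDH, and to 67355 ± 36536 and 47487 ± 9199 CPM without and with the AEDH mutations in the ebax-1 null (SD, n = 4 each). The part of embryos in the adult values was not tested.

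The background of these contrasts was as follows. In young adults of experiment 1, 0 of 9 member arms passed the threshold, where 1.36% of all arms did, although 31 of all 220 arms had an unadjusted p under 0.05, and DESeq2 called 5 member arms. In L4 larvae 3 of 9 passed, where 4.93% of arms did, and in embryos 4 of 6, where 11.3% did. Those in embryos were 3 guide arms, which were lower, and the star mir-796_3p*, which was higher. That star passed the filter through double AEDH, the group in which it is high. In experiment 2, 3 of 9 passed in wild type and in the ebax-1 null, where 7.96% and 11.1% of arms did, and 4 of 9 in the Y47 site deletion, where 7.08% did. Nothing is read from these counts, since the contrasts chose the members. With the replicate number as a block, which the data pair in 5 of these contrasts, the young adults of experiment 1 gave 4 calls, and with spike-in scaling all contrasts but the ebax-1 null and the embryos gave 0. Dropping 1 library gave 0 to 3 calls in L4 larvae and 0 to 4 in embryos.

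Experiment 3, in which each Argonaute carried the AEDH mutation alone, was not used in the choice. It asks whether the guide arms were lower when only one of the proteins was mutant. In alg-1 AEDH embryos 0 of 6 member arms passed, where 0.508% of 197 arms did by edgeR, with 15 arms at an unadjusted p under 0.05 and no member called by DESeq2. In alg-2 AEDH embryos 1 of 6 passed, mir-1821_3p, where 4.06% of arms did. Between the mutants 0 of 6 passed, where 2.03% of arms did, with 22 arms at an unadjusted p under 0.05, and DESeq2 also called no member. The median log2 fold change of the 5 guide arms tested was -0.45 in alg-1 AEDH and -0.42 in alg-2 AEDH, beside -0.10 and -0.21 for all 119 guide arms, of which 73.1% and 74.8% lay below 0.

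mir-1821_3p was at 112, 102, 174 and 159 CPM in wild-type embryos of experiment 3 (replicates 1 to 4). It was at 83.2, 75.4, 90.2 and 97.3 CPM in alg-2 AEDH and at 82.9, 76.0, 124 and 117 CPM in alg-1 AEDH. All alg-2 AEDH libraries lay below all wild-type libraries, which held for 3.55% of all arms, while alg-1 AEDH overlapped wild type. The log2 fold change was -0.64 in alg-2 AEDH (95% interval -0.95 to -0.32, edgeR adjusted p = 0.0203). The call was lost with total counts (edgeR adjusted p = 0.103), without the filter (0.0637), without any of alg-2 AEDH replicates 1, 2 and 3 (0.0931 to 0.116) and without wild-type replicate 3 or 4 (0.169 and 0.111).

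In alg-1 AEDH the log2 fold change of mir-1821_3p was -0.45 (95% interval -0.77 to -0.14, edgeR adjusted p = 0.305). It was lower in 4 of 4 same-numbered libraries, although the numbers do not single out pairs here. Wild-type and alg-1 AEDH replicates 3 and 4 were above replicates 1 and 2 for this miRNA. The same libraries stood apart in the markers. The mir-35 family, with 8 of 8 arms measured, summed to 309772, 326869, 203363 and 224723 CPM in wild-type replicates 1 to 4 and to 320198, 333939, 222250 and 220460 CPM in alg-1 AEDH, but to 287645 to 317681 CPM in all 4 alg-2 AEDH libraries. The neuronal mir-124_3p was at 10.7 and 11.8 CPM in wild-type replicates 3 and 4, against 6.03 and 3.94 CPM in replicates 1 and 2 and 3.77 to 7.20 CPM in alg-2 AEDH. In replicates 3 and 4, then, alg-2 AEDH and wild type differed in these markers as well, and the part of this in the mir-1821_3p values was not tested. With a term for replicates 1 and 2 against 3 and 4, which was added after the values were seen, the edgeR adjusted p was 0.0464 for alg-1 AEDH and 0.00218 for alg-2 AEDH. Within replicates 1 and 2, where the mir-35 family was at 300606 to 333939 CPM in all 3 groups, the log2 ratio of means to wild type was -0.44 in both mutants. Within replicates 3 and 4 it was -0.47 in alg-1 AEDH and -0.83 in alg-2 AEDH. The mutants were not told apart (log2 fold change of alg-2 over alg-1 AEDH -0.18, 95% interval -0.50 to 0.13).

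The arms of mir-796 in the single mutants are the other values of interest. mir-796_5p was at 26.0, 22.9, 32.5 and 24.7 CPM in wild type, 18.0, 31.2, 30.3 and 32.5 CPM in alg-1 AEDH and 21.3, 20.7, 19.8 and 16.9 CPM in alg-2 AEDH. The alg-2 AEDH libraries lay below all wild-type ones, as held for 3.55% of all arms, and alg-1 AEDH overlapped both groups. The log2 ratio of means of alg-2 AEDH to wild type was -0.22 in replicates 1 and 2 and -0.64 in replicates 3 and 4. In replicates 3 and 4 these groups also differed in the mir-35 family and mir-124_3p, and the part of this was not tested. The log2 fold change was -0.42 in alg-2 AEDH (95% interval -0.82 to -0.03, edgeR adjusted p = 0.193) and 0.05 in alg-1 AEDH (95% interval -0.34 to 0.44).

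The star arm mir-796_3p* was at 0.208, 0.455, 0.611 and 0.314 CPM in wild type, 0, 0.349, 0.591 and 0.571 CPM in alg-1 AEDH and 1.19, 1.69, 1.23 and 0.883 CPM in alg-2 AEDH. For the star, unlike the guide, alg-2 AEDH stood apart from both other groups, which overlapped. Of all arms tested, 9.64% lay wholly above wild type in alg-2 AEDH. These values rest on 10, 9 and 29 reads in all and were below the filter. Its star share was 1.46 ± 0.539% in wild type, 1.19 ± 0.863% in alg-1 AEDH and 5.92 ± 1.16% in alg-2 AEDH (SD, n = 4 each). The ratio of these arms has no test, because a lower count minimum would admit the star arm only through alg-2 AEDH, the group in which it is high. At the minimum mean count of 10, no member hairpin could be tested, and 40.5% of the 74 hairpins that could be had a changed ratio in alg-2 AEDH and 5.41% in alg-1 AEDH.

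**Figure D3:**
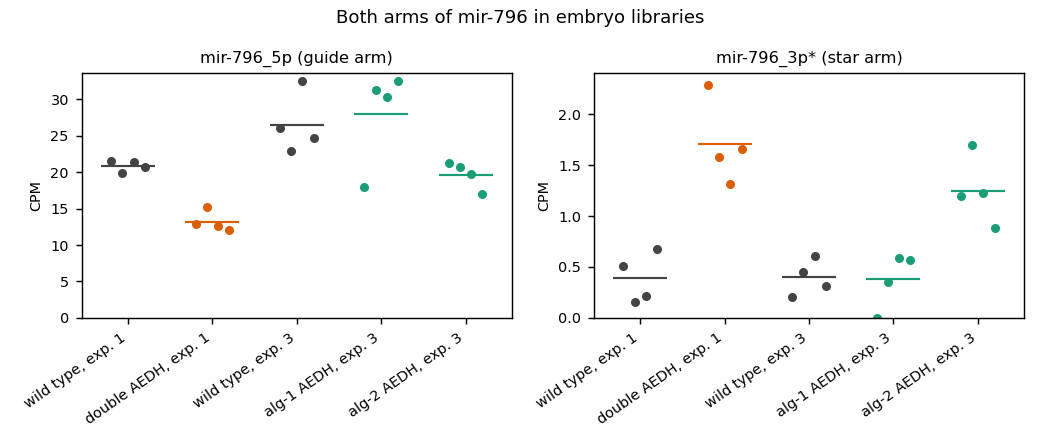
Levels (CPM) of the guide and star arms of mir-796 in embryo libraries of experiments 1 and 3, with points for libraries and lines for group means. Double AEDH and alg-2 AEDH star values lie above those of their wild types, and alg-1 AEDH values overlap those of wild type.

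mir-800_3p, by contrast, was at 10.4, 12.7, 11.6 and 10.1 CPM in wild type, 7.70, 9.24, 7.68 and 8.56 CPM in alg-1 AEDH and 9.14, 10.5, 10.1 and 15.9 CPM in alg-2 AEDH. The alg-1 AEDH libraries lay below all wild-type libraries, which held for 1.02% of all arms, and alg-2 AEDH overlapped wild type. The log2 fold change was -0.45 in alg-1 AEDH (95% interval -0.99 to 0.09, edgeR adjusted p = 0.81) and 0.01 in alg-2 AEDH (95% interval -0.52 to 0.53). The difference between mutants was 0.46 for alg-2 over alg-1 AEDH (95% interval -0.08 to 0.99, edgeR adjusted p = 0.506).

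mir-789-1_5p was at 6.66, 3.94, 19.4 and 19.2 CPM in wild type, 2.20, 3.14, 10.6 and 12.6 CPM in alg-1 AEDH and 4.17, 7.62, 13.3 and 6.71 CPM in alg-2 AEDH. In wild type and alg-1 AEDH, replicates 3 and 4 were several times above 1 and 2, and all groups overlapped. Matched by number, which does not single out pairs here, alg-1 AEDH was lower than wild type in 4 of 4. The log2 ratios of means were -0.99 in replicates 1 and 2 and -0.73 in replicates 3 and 4. With the replicate number as a block the log2 fold change was -0.82 (edgeR adjusted p = 0.187). Its log2 fold changes were -0.80 in alg-1 AEDH (95% interval -1.88 to 0.29) and -0.56 in alg-2 AEDH (95% interval -1.63 to 0.51). mir-2953_3p was at 3.08 ± 1.45 CPM in wild type, 2.42 ± 1.08 CPM in alg-1 AEDH and 2.24 ± 0.774 CPM in alg-2 AEDH (SD, n = 4 each), overlapping throughout, and mir-784_5p was below the filter.

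**Figure D4:**
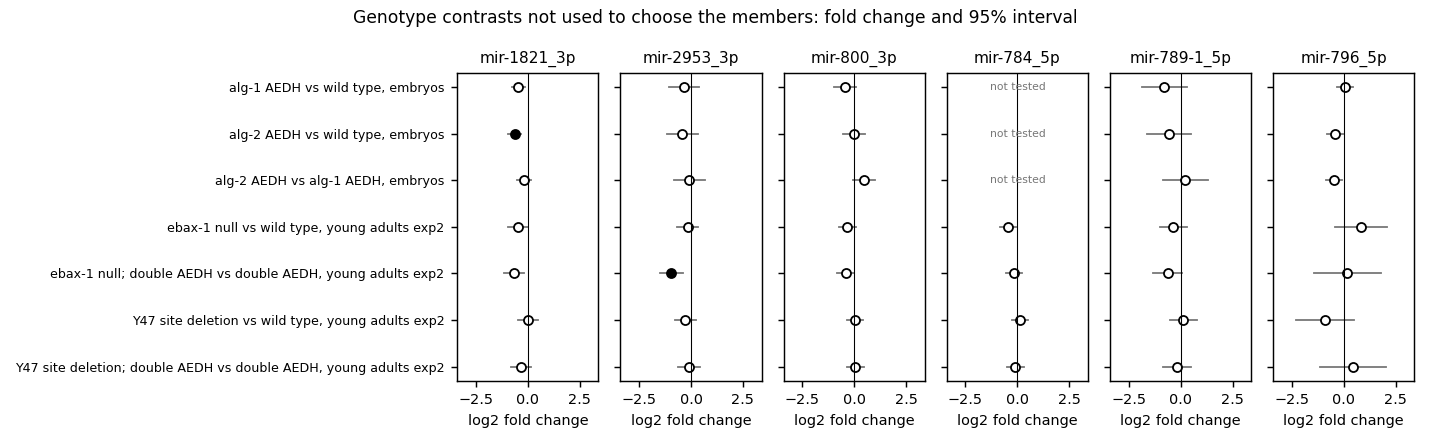
Log2 fold change (edgeR, TMM) with its 95% interval for each member guide arm in the genotype contrasts of experiments 2 and 3 that did not choose the members, without the wild-type stage contrasts. Libraries of experiment 2 also served in the contrasts that chose the members. Filled points passed an adjusted p of 0.05 and open points did not. The filled points are mir-1821_3p in alg-2 AEDH embryos (-0.64) and mir-2953_3p in ebax-1 null; double AEDH against double AEDH young adults (-0.94).

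Loss of EBAX-1 tests whether a miRNA's level depends on the ligase receptor used by TDMD, whose miRNAs are known to accumulate without it. All libraries of these comparisons also served in contrasts that chose the members. In ebax-1 null young adults 0 of 9 member arms passed, where 21.7% of all 226 arms did by edgeR, with 69 arms at an unadjusted p under 0.05 and no member called by DESeq2. Of the 6 guide arms, 5 had a log2 fold change below 0, with a median of -0.34, beside -0.03 for all guide arms. The wild-type controls also served in the choice, which could by itself lower these values, so nothing is read from the direction. mir-784_5p, at 14.8, 17.3, 13.8 and 14.8 CPM against 21.1, 20.7, 18.8 and 21.2 CPM in wild type, did not overlap, as held for 11.1% of all arms in that direction. This was a log2 difference of -0.47 (95% interval -0.86 to -0.08, edgeR adjusted p = 0.0842). mir-796_5p was the guide arm above 0 (0.84, 95% interval -0.40 to 2.08, edgeR adjusted p = 0.405). It was at 1.86, 1.97, 2.91 and 4.44 CPM in ebax-1 null replicates 1 to 4, where the embryonic mir-35 family summed to 37041, 34527, 101624 and 96227 CPM, against 58444 to 66687 CPM in wild type. The part of embryos in this value was not tested. The star-to-guide ratio changed in 0 of 3 member hairpins tested, where 10.9% of hairpins did, with log2 shifts of 0.44 for mir-784, 0.71 for mir-789-1 and 0.66 for mir-800. Spike-in scaling shifted the all-arm median from -0.01 to 0.75 here and put the 6 guide arms above 0, so a direction relative to wild type rests on the scaling.

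In animals that also carried both AEDH mutations, 1 of 9 member arms, mir-2953_3p, was lower with loss of EBAX-1, where 15.9% of arms passed, and no member passed as higher. It was at 3.22, 2.87, 4.96 and 2.96 CPM in ebax-1 null; double AEDH and 3.49, 8.03, 6.39 and 8.56 CPM in double AEDH, overlapping through 1 library of each group. The log2 fold change was -0.94 (95% interval -1.49 to -0.39, edgeR adjusted p = 0.0189). Both groups also served in contrasts that chose the members, so nothing is read from the calls or directions of this comparison. It was lower in 4 of 4 same-numbered libraries, although numbers do not pair these groups (r from -0.31 to 0.36). The call was lost with spike-in scaling (-0.48, edgeR adjusted p = 0.366) and without any of ebax-1 null; double AEDH replicates 1 and 2 and double AEDH replicates 2, 3 and 4 (edgeR adjusted p 0.0503 to 0.110).

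mir-1821_3p was at 24.8, 25.6, 29.5 and 26.6 CPM in ebax-1 null; double AEDH and at 43.5, 33.9, 55.9 and 34.5 CPM in double AEDH. The groups did not overlap, as for 11.5% of all arms in that direction. Their log2 difference was -0.67 (95% interval -1.16 to -0.19, edgeR adjusted p = 0.0549), on the edge of the threshold. mir-800_3p (-0.41), mir-789-1_5p (-0.63), mir-784_5p (-0.16) and mir-796_5p (0.18) did not pass. The difference of the double AEDH fold changes between the ebax-1 null and wild-type backgrounds was -0.78 for mir-2953_3p, -0.22 for mir-1821_3p, -0.08 for mir-800_3p, -0.28 for mir-789-1_5p, -0.66 for mir-796_5p and 0.30 for mir-784_5p, as values without a test.

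Removing the mir-243 site of Y47H10A.5 was not accompanied by a member call. In either background 0 of 9 member arms passed, where 0% of 226 arms did by edgeR, with 19 arms at an unadjusted p under 0.05 in the deletion alone and 7 with double AEDH, and DESeq2 called no member. mir-1821_3p was at 59.1, 49.0, 84.7 and 76.2 CPM in the deletion and 71.1, 52.1, 70.7 and 62.3 CPM in wild type, which overlapped. Its log2 fold changes were 0.02 (95% interval -0.46 to 0.50) in the deletion against wild type and -0.32 (95% interval -0.80 to 0.17) with double AEDH in both arms of the comparison. The log2 fold changes of mir-2953_3p were -0.27 (95% interval -0.77 to 0.23) and -0.12 (95% interval -0.64 to 0.41).

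Across the 15 group means the guide arms did not form 1 pattern. As a description, Pearson's r of log2 CPM was 0.97 between mir-2953_3p and mir-789-1_5p, 0.90 between mir-784_5p and mir-789-1_5p, and -0.93 between mir-784_5p and mir-796_5p. The 15 groups share their stages, so these values are not independent. Among 173 arms with a mean of at least 10 CPM, the arm most like mir-1821_3p was mir-254_3p (r = 0.82), and that most like mir-784_5p was mir-48_3p* (0.99), followed by mir-795_5p and mir-59_3p. mir-796_5p was most like mir-231_3p (0.98), ahead of both arms of mir-4813. For mir-2953_3p, mir-243_3p came next to mir-789-1_5p (0.96), and mir-789-1_5p was most like mir-2953_3p among members and mir-248_3p outside them (0.94). mir-800_3p had no close match, with mir-1829a_5p highest (0.71) and mir-243_3p next (0.64).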

How the data were processed

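The authors deposited estimated counts per miRNA arm, as raw values with no scaling, with 10 spike-in RNAs and 5 summary categories that were kept out of library totals and tests. Of its values 5.67% ended in 0.5 and were rounded, 2 of them in the 12 arms described. Per the submitters' processing notes, the tools named were DESeq2, HTSeq 0.13.5, SAMtools 1.13, Bowtie2 2.4.4 and cutadapt 3.4. How HTSeq was set is not given in the sources used here. The libraries came from a ligation-based kit with gel selection after reverse transcription, per the labels' protocols.

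The test for arms was that of edgeR 4.0.16 (quasi-likelihood, TMM, filterByExpr with a minimum count of 10) in R 4.3.3, on all arms of the table, with Benjamini-Hochberg adjustment over all arms tested and a threshold of 0.05. Experiments 2 and 3 and the wild-type stages were each fitted with all their groups, and double AEDH in experiment 1 by stage. Fold changes and intervals come from these TMM-scaled fits, while CPM values are counts over the library total. Star-to-guide ratios, log2 with 0.5 added to each arm, were tested with limma 3.58.1 where both arms had mean counts of 10 or more. DESeq2 1.42.0, other scalings, no filter, a replicate block and leaving out each library were alternatives. The code was tested on simulated data. Replicate pairs differed by more than sampling noise (chi-square per degree of freedom at least 122), so each library counted once.

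The named arms are the 12 arms of the 6 hairpins, the copy mir-789-2, and the 3 arms most like each guide over group means. Arms sharing a seed were part of the rule, but seed sequences were not used here. The members and lists were chosen with earlier results of these data known. Same-numbered libraries were taken as paired where each pair's deviations correlated above 0.1, which held for alg-1 AEDH against wild type (0.33 to 0.76), Y47 site deletion with double AEDH against double AEDH (0.12 to 0.49), and 5 double AEDH contrasts. Each wild-type library of experiment 3, however, correlated more with a differently numbered alg-1 AEDH library (0.47 to 0.84). The numbers therefore do not single out pairs in that comparison.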

Additional observations from a re-analysis of the deposited data

Results flagged for a closer look

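In 6 of 95 groups of 4 libraries, 1 library stood apart from the other 3 by Dixon's test, where chance flags about 1 in 20 (4.75 here). mir-796_5p was at 18.0 CPM in alg-1 AEDH replicate 1, below the others of that group, and at 3.91 CPM in double AEDH young adult replicate 1 of experiment 1, above the others. In that last library the embryonic mir-35 family summed to 140895 CPM, against 27986 to 73714 CPM in the other 3, and its part was not tested. mir-800_3p was at 9.74 CPM in double AEDH embryo replicate 1, the library nearest to wild type, and mir-2953_3p at 4.96 CPM in ebax-1 null; double AEDH replicate 3. The star arm mir-784_3p* was low in Y47 site deletion replicate 1 (1.23 CPM) and high in Y47 site deletion; double AEDH replicate 4 (4.17 CPM).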

How the results depend on the processing

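Member arms called in alg-2 AEDH embryos (1) were 0 with total counts or no filter, and 0 to 1 leaving out 1 library; in alg-1 AEDH (0) they were 1 with the added replicate term. A minimum mean count of 3 gave 1 changed ratio in alg-2 AEDH (mir-796, whose star passes only through that group, so it supports nothing) and 2 between wild-type embryos and young adults (mir-1821 and mir-784). The star of mir-1821 passes through embryos (54 reads, against 8 in young adults). That of mir-784 passes through larvae and young adults and has 3 reads in embryos, so these ratios support nothing either. Loss of ebax-1 gave 1 call with spike-ins in the wild-type background. In double AEDH it gave 1 call, against 2 with no filter, 0 with spike-ins, 0 to 1 leaving out 1 library, and 3 with the replicate block (mir-1821_3p, mir-2953_3p and mir-789-1_5p), where numbers do not pair the libraries (r from -0.31 to 0.36). Embryos against L4 gave 5 calls, against 8 with no filter, 7 with total counts, 6 with DESeq2 size factors and 5 to 7 leaving out 1 library. The block changed no other member call in the tested comparisons.

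Directions that turned belong to arms that were not called with TMM, and the cause was not tested. With spike-ins, ebax-1 null against wild type gave 0.31 for mir-1821_3p, 0.56 for mir-2953_3p, 0.30 for mir-784_5p, 0.34 for mir-789-1_5p and 0.42 for mir-800_3p; in double AEDH, 0.30 for mir-784_5p and 0.13 for mir-800_3p; L4 against young adults, 0.024 for mir-784_5p and 0.40 for mir-784_3p* (0.0059 with total counts). With total counts, embryos against L4 gave -0.26 for mir-1821_3p and -0.71 for mir-800_3p, and against young adults -0.26 for mir-800_3p. Embryos against L4 gave -0.14 for mir-800_3p with DESeq2 or its size factors and -0.0040 without a filter. Leaving out 1 library gave ranges across 0 for mir-796_5p in alg-1 AEDH (-0.046 to 0.12), mir-800_3p in alg-2 AEDH (-0.17 to 0.20), mir-2953_3p (-0.35 to 0.19) and mir-789-1_5p (-0.13 to 0.54) between the single mutants, the ratios of mir-784 (-0.027 to 0.95) and mir-800 (-0.12 to 1.34) in ebax-1 null, mir-784_5p (-0.26 to 0.018) and mir-796_5p (-0.15 to 0.81) in ebax-1 null; double AEDH, mir-784_3p* in L4 against young adults (-0.44 to 0.20) and mir-800_3p in embryos against L4 (-0.37 to 0.10).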
